A study of Mus musculus with 7 samples.

Results

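Tomato+ only regions are stretches of open chromatin with a peak at a q-value of 0.01 or below, that is a -log10 q of at least 2, in both libraries of Tomato+ cells and in none of the 5 further libraries of the same study. They were found by merging the peaks of all 7 lists that shared at least 1 bp on chromosomes 1 to 19, which gave 203618 merged regions. Of these, 817 met the rule, 0.401% of all merged regions. They comprised 39 promoter regions, 0.214% of the 18256 merged regions that touched the window from 1000 bp upstream to 100 bp downstream of a RefSeq transcription start site (TSS), and 778 distal regions, 0.420% of the other 185362. The peak values themselves chose these regions, so the values below are a description and no test was made of them.

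The study compared populations of the second heart field (SHF) at embryonic day 9.5 by ATAC-seq, in which a transposase cuts accessible DNA and inserts sequencing adapters. Tomato+ cells (replicates 6 and 8) and Tomato- cells (replicate 7) were sorted from the Mef2c-Cre;Rosa tdT line, where Cre driven by an anterior heart field enhancer of Mef2c switches on a red reporter in a cell and all its descendants. GFP+ cells (replicates 3 and 4) and GFP- cells (replicates 1 and 2) were sorted from Hoxb1-GFP embryos, in which GFP reports Hoxb1 activity in the posterior SHF. Each sample was sorted from the dissected SHF region of pooled embryos, and the labels do not say whether replicates came from separate pools. Mouse line and sorted population cannot be told apart between Tomato+ and GFP+ cells, and in a sorted pool a site open in fewer cells cannot be told apart from a site that is less open in each cell.

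The SHF is a reservoir of progenitors in the pharyngeal mesoderm behind the early heart tube. Its anterior part (aSHF), which expresses genes such as Tbx1, Fgf8 and Fgf10, adds cells to the right ventricle and outflow tract, and it lies next to progenitors of the head and neck muscles, with which it shares factors such as Tcf21, Lhx2 and Ebf genes. Its posterior part (pSHF) is patterned by retinoic acid and Hox genes and adds cells to the atria and the base of the pulmonary trunk. Distal open sites often hold enhancers, stretches that transcription factors bind to switch on a gene from afar, and a site open in one lineage alone is a candidate for such an element. Closed, nucleosome-bound DNA gives few cuts, and the peak caller scores how far the cuts at a position exceed the local background.

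The sequences below show 121 bases centred on the strongest summit of 11 regions, in GRCm38, taken from the RefSeq assembly. They are the leading single-copy regions at promoters (Creb5, Mnx1) and away from them (Endod1), a distal region without a peak of any strength elsewhere (Uqcrfs1), a pair from repeated DNA (Gm6871, Kcnj3), and regions beside genes of the aSHF, head muscle and neural crest lists. Capitals mark a match, on either strand, to any of 20 short motifs that were searched, and lower case marks all other bases. A match is a description of the letters and not a bound site.
Creb5 promoter, chr6:53573233-53573353, plus strand: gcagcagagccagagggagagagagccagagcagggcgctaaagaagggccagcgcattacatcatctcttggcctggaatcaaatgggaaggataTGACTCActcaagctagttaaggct
Mnx1 promoter, chr5:29478664-29478784, plus strand: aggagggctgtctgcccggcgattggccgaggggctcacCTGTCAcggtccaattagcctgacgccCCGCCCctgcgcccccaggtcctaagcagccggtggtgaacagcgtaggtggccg
Nearest TSS Endod1, chr9:14342402-14342522, plus strand: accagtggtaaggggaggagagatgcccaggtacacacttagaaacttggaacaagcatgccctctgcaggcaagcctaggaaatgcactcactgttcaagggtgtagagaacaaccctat
Nearest TSS Uqcrfs1, chr13:30484850-30484970, plus strand: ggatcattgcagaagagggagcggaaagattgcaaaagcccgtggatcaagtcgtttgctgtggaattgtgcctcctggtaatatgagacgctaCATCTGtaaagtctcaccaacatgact
Nearest TSS Gm6871, chr7:41564438-41564558, plus strand: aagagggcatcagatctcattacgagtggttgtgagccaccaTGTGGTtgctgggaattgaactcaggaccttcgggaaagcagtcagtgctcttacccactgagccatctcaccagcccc
Nearest TSS Kcnj3, chr2:55786130-55786250, plus strand: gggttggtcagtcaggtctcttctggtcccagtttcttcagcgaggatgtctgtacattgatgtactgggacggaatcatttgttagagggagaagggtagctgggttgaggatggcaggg
Eya1 intron, chr1:14186006-14186126, plus strand: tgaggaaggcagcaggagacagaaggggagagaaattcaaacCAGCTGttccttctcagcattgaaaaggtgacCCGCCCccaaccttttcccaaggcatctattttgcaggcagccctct
Region near Spry1, chr3:37769566-37769686, plus strand: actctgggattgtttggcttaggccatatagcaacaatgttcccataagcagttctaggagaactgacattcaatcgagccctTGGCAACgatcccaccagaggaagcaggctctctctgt
Tcf21 intron, chr10:22819322-22819442, plus strand: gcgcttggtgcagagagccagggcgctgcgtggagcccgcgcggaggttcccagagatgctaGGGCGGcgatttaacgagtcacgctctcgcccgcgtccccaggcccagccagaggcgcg
Upstream of Ebf3, chr7:137319113-137319233, plus strand: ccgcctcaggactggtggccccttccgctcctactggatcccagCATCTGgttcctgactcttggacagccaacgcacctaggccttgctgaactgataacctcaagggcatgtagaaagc
Upstream of Dlx2, chr2:71551862-71551982, plus strand: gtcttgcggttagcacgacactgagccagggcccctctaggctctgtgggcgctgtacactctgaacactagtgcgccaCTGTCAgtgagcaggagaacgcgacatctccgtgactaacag

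The Creb5 sequence holds a match to TGANTCA, the core read by AP-1 factors, and the Mnx1 sequence holds matches to TGACAG (MEIS factors) and GGGCGG (SP factors). In the Eya1 intron, CAGCTG, an E-box read by basic helix-loop-helix factors, stands beside an SP match. The Spry1 sequence matches GTTGCCA (RFX factors), the Ebf3 sequence matches CAGATG, a second E-box, and the Dlx2 sequence matches TGACAG. No letters of the 20 motifs occur in the 121 bases beside Endod1 and Kcnj3.

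The 2 Tomato+ libraries had few regions to themselves. Of 22103 merged regions with a peak in Tomato+ replicate 6 and in none of the 5 non-Tomato+ libraries, 817 (3.70%) had one in Tomato+ replicate 8. In the opposite direction the share was 5.19% of 15736 regions. Among regions with a peak in exactly 2 libraries, Tomato+ replicate 6 shared 817 with Tomato+ replicate 8, but 1385 with Tomato- replicate 7, 1194 and 1183 with the GFP+ libraries (replicates 4 and 3) and 766 and 684 with the GFP- libraries (replicates 2 and 1). Tomato+ replicate 8 shared 1404 with Tomato- replicate 7 and between 641 and 763 with each GFP+ or GFP- library. Both Tomato+ libraries thus had more two-library regions with the Tomato- library of their own line than with each other. The same held for regions whose lower -log10 q was at least 4, of which the 2 Tomato+ libraries shared 34, Tomato+ replicate 6 and Tomato- replicate 7 shared 72, and Tomato+ replicate 8 and Tomato- replicate 7 shared 95. None of these counts was adjusted for library size, and -log10 q grows with depth. Tomato- replicate 7 had the most merged regions of the 7 libraries (69530), Tomato+ replicate 8 the fewest (56937), and Tomato+ replicate 6 had 63557. The run name recorded for Tomato+ replicate 6 begins with YFP and that of replicate 8 with TomPos, and the sample labels were followed.

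**Figure D1:**
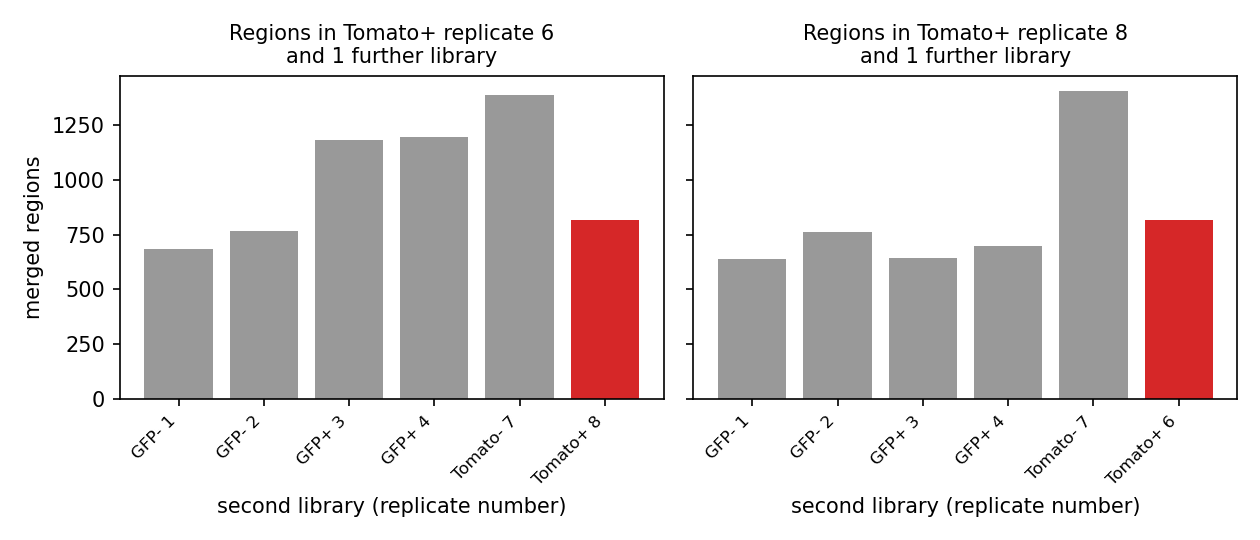
Number of merged regions (y axis) with a peak at -log10 q of at least 2 in exactly 2 libraries, for Tomato+ replicate 6 (left) and Tomato+ replicate 8 (right) with each further library (x axis). The red bar, the 817 Tomato+ only regions, is lower than the bar for Tomato- replicate 7 in both panels, and in the left panel also lower than the bars for both GFP+ libraries. Counts are not adjusted for library size.

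Promoter peaks at marker genes were set beside the labels. Of 20 aSHF and pharyngeal mesoderm genes, 17 and 15 had a promoter peak in Tomato+ replicates 6 and 8, against 14 to 17 in the other 5 libraries, so these promoters did not separate Tomato+ cells. Of 18 erythroid genes, 4 had one in each Tomato+ library, 4 to 8 in the GFP+ and GFP- libraries, and 14 in Tomato- replicate 7. Endothelial and neural promoters were also open most often in Tomato- replicate 7, with 12 of 18 and 20 of 22 genes, against 6 and 13 in Tomato+ replicate 6, 8 and 18 in Tomato+ replicate 8, and 5 to 10 and 15 to 18 in the GFP+ and GFP- libraries. The Tomato+ libraries differed most at neural crest genes, with 4 of 12 in replicate 6 and 9 in replicate 8, against 7 to 10 elsewhere, and at neural genes. The cardiomyocyte list had 10 and 7 of 20 in replicates 6 and 8 (6 to 9 elsewhere), head muscle 6 and 4 of 10 (4 to 6), pSHF 15 and 15 of 20 (15 to 17), endoderm 5 and 7 of 16 (4 to 9), and RUNX, TEAD and LHX factors 17 and 14 of 20 (13 to 16). The peak lists held 183148 to 284841 peaks, of which 60806 to 73690 had a q-value of at most 0.01, from an estimated 52340120 to 93074895 tags. Tomato- replicate 7 had the most tags and Tomato+ replicate 6 the fewest. The part of depth or of these cell types in the rule was not tested. A rule that ignores a GFP+, GFP- or Tomato- library cannot give a lower count than the full rule. The count was 1243 when Tomato- replicate 7 was ignored, and 989 to 1013 when a GFP+ or GFP- library was ignored instead.

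Most of the 817 regions had low peaks. The lower of the 2 Tomato+ -log10 q-values had a median of 2.45 and ran from 2.002 to 6.999. It was under 2.5 in 502 regions, at least 3 in 158, at least 4 in 34 and at least 5 in 9. The median pileup, the number of extended tags over the summit, was 12 in Tomato+ replicate 6 and 13 in replicate 8, where the lowest pileup of any peak past the q limit was 10 and 11. Fold enrichment over local background had medians of 3.67 and 3.40. At the limit, regions beside Smyd2, Bcam and Mir3102 entered with lower values of 2.002, 2.003 and 2.004, while a region beside Ncoa2 stayed out with 1.997 in Tomato+ replicate 6 and a region beside Igfbp5 with 1.995 in Tomato+ replicate 8.

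The 2 Tomato+ libraries ranked the regions differently. Spearman's rho between their -log10 q-values over the 817 regions was 0.069, a description over regions chosen for passing the limit in both. The value was higher in replicate 6 in 513 regions and in replicate 8 in 304. The 4 highest values of replicate 6 lay at an intergenic region whose nearest TSS is Gm14015, inside Npas3 (in sequence with 93 genome copies), inside Sptb and at an intergenic region near Gm33337. The Gm14015 region reached 20.6 in replicate 6 and 2.35 in replicate 8. Summits of the 2 libraries were within 50 bp of each other in 436 regions, with a median gap of 43 bp.

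**Figure D2:**
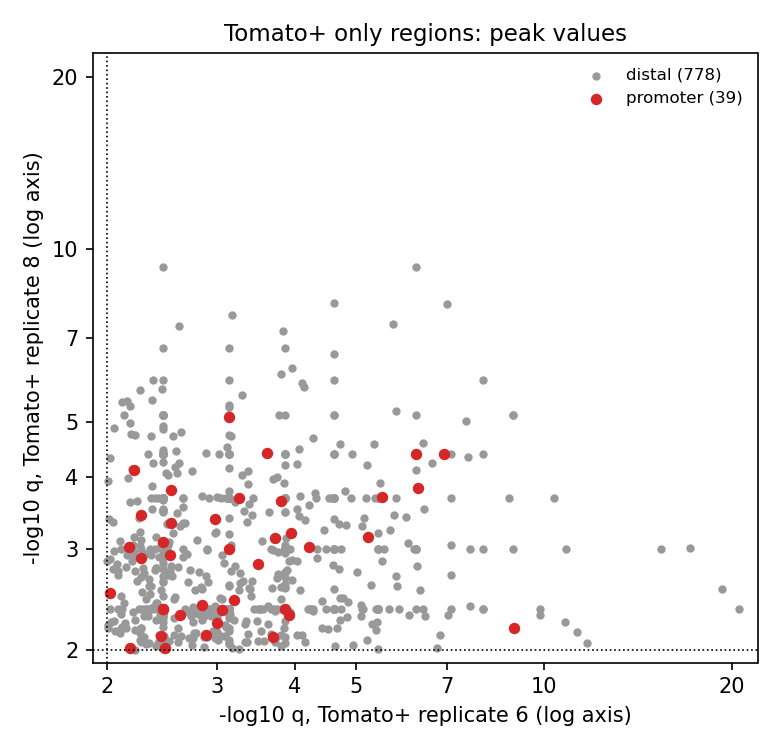
Peak values of the 817 regions, with -log10 q in Tomato+ replicate 6 on the x axis and in Tomato+ replicate 8 on the y axis, both log axes. Each point is a region (grey distal, red promoter), dotted lines mark the limit of 2, and most points lie close to one or both limits without a trend between the libraries.

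A weaker peak was present elsewhere at most of these sites. The deposited lists also hold peaks with a q-value above 0.01, and 649 of the 817 regions (79.4%) overlapped such a peak in at least 1 of the other 5 libraries. Tomato- replicate 7 held a weaker peak at 323 of them, GFP+ replicate 3 at 319, GFP+ replicate 4 at 303, GFP- replicate 2 at 271 and GFP- replicate 1 at 255. The weaker peaks had median -log10 q-values from 0.935 to 1.27, and the highest, beside Chchd6, was 1.99. In 20 regions all 5 libraries held a weaker peak. The same was found for GFP+ only regions, chosen by the mirrored rule (1122 regions, 0.551% of all), of which 854 (76.1%) had a weaker peak elsewhere. "Tomato+ only" therefore describes the q limit, and 168 regions (3 promoter, 165 distal) had no deposited peak of any strength in the other 5 libraries. Those 168 had a median lower -log10 q of 2.35 and a highest value of 4.63, and 52 of them (30.95%) lay in repeated sequence, against 126 of the other 649 (19.4%).

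**Figure D3:**
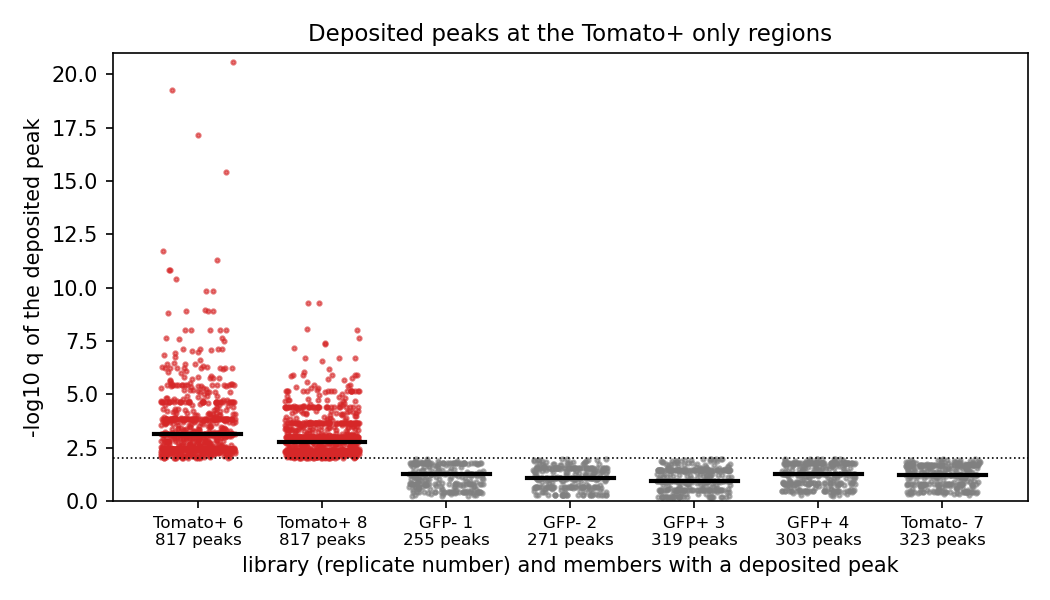
The -log10 q of the deposited peak (y axis) at each of the 817 regions in each library (x axis, with the number of regions that had a peak). Points are regions, black bars are medians over the peaks shown, and the dotted line is the limit of 2, above which both Tomato+ libraries (red) lie by the rule and below which the other 5 (grey) hold 255 to 323 weaker peaks each.

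The 39 promoter regions held 4.77% of the set (95% Wilson interval 3.51 to 6.46). The share was 4.84% in the 18347 other regions found in exactly 2 libraries, 4.01% in GFP+ only regions and 8.97% in all merged regions. The interval held the shares of both two-library sets and lay below that of all regions. Of the 39, the centre of the region lay upstream of the nearest TSS in 25. A promoter window of the same gene held another merged region in 25 of them, and in 11 of them a region with a peak in all 7 libraries, at a median gap of 473 bp. The gaps ran from 14 bp (Twist2) to 284600 bp (Creb5), because the windows of all TSSs of a gene were counted. Some of these regions were thus at a distant TSS of the gene. None of the 39 was the promoter of a gene on the marker lists.

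Creb5, which encodes a leucine-zipper factor of the CREB and ATF family, had one of the 2 highest promoter values. Its region (chr6:53573028-53573355, 183 bp upstream of the nearest TSS and inside intron 5 of a longer transcript) had a -log10 q of 6.93 in Tomato+ replicate 6 and 4.40 in replicate 8, with pileups of 17 and 14. Weaker peaks there had -log10 q of 0.737 in GFP- replicate 1, 1.57 in GFP- replicate 2, 1.95 in GFP+ replicate 3, 1.25 in GFP+ replicate 4 and 1.64 in Tomato- replicate 7. The site was thus scored in all 7 libraries, and the rule fixes that the Tomato+ values are the highest.

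Mnx1, a homeobox gene known from motor neurons and the pancreas, had a region 216 bp upstream of its TSS (chr5:29478581-29478792). The -log10 q was 6.30 in Tomato+ replicate 6 and 3.84 in replicate 8. GFP- replicate 2, GFP+ replicates 3 and 4 and Tomato- replicate 7 held weaker peaks of 1.43, 1.08, 0.835 and 0.770, and GFP- replicate 1 held no deposited peak. The summit window had a GC content of 65.8%.

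Kmt2d encodes a histone methyltransferase that marks enhancers and is mutated in Kabuki syndrome, which includes heart defects. Its region, 203 bp downstream of the TSS in a non-coding part of an exon, had values of 5.52 and 3.69, and weaker peaks of 1.52 and 1.33 in GFP+ replicates 3 and 4 alone. A region with peaks in all 7 libraries lay 167 bp away. At Lin28b, which encodes an RNA-binding repressor of let-7 miRNAs, the values were 3.25 and 3.68, with weaker peaks of 0.821 and 1.43 in GFP- replicates 1 and 2. Ecscr, an endothelial surface protein gene, had 3.80 and 3.64 in the Tomato+ libraries and weaker peaks in 3 others, the highest being 1.70 in Tomato- replicate 7.

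The other leading promoter regions belonged to less well-described genes. BC061237 had values of 6.25 and 4.40, but its summit sequence occurred 8 times in the genome, and Gm21190 (3.61 and 4.40) occurred 9 times. Sh2d6, 2410004P03Rik and Fam114a1 had lower values of 3.20, 3.15 and 3.13. Further down the list, and picked here after their values were seen because they encode developmental regulators, were Twist2 (2.98 and 3.38), En2 (3.05 and 2.35), Irx6 (3.72 and 3.13) and Stra6, the cell-surface receptor for retinol carried by its binding protein (4.21 and 3.02). En2 had a weaker peak in all 5 other libraries, Irx6 and Stra6 in 4, and Twist2 in 3. Ncapd3, a condensin subunit gene, had the highest promoter value in one library, 8.98 in replicate 6, beside 2.18 in replicate 8.

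The 778 distal regions lay in introns and between genes. By the summit, 367 were in introns, 368 were intergenic, 28 were in coding exons and 15 in other exonic sequence. Over all 817, 46.5% of summits were intronic (interval 43.1 to 49.9) and 47.1% intergenic, against 41.7% and 49.2% in other two-library regions. The intronic share was higher than in other two-library regions beyond the counting interval, and the coding-exon share, 4.04% (2.89 to 5.62), was below their 5.87%. Median length was 238 bp, close to the 235 bp of other two-library regions, and the median distance to a TSS was 23937 bp. A region open in all 7 libraries lay within 1000 bp of 37 regions (4.53%, 3.30 to 6.18), against 5.34% of other two-library regions.

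Endod1, which encodes a nuclease-like protein, was the nearest gene of the region with the highest lower value. This intergenic region (chr9:14342315-14342544, 38813 bp downstream of the TSS) had a -log10 q of 6.999 in Tomato+ replicate 6 and 8.03 in replicate 8, with pileups of 18 and 19 and folds of 5.12 and 5.45. Only GFP+ replicate 4 held a weaker peak, of 0.979. Its summit sequence was single-copy.

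Rasl10b, a small GTPase gene, held the highest distal region that had a weaker peak in all 5 other libraries. The region lay in a coding exon of the gene, 8811 bp from the TSS, with 5.81 and 5.21 in the Tomato+ libraries and 0.797 to 1.71 elsewhere. A region 32116 bp from the TSS of Ccn3, a secreted matricellular protein gene, had 6.25 and 5.15, with weaker peaks in GFP- replicate 2 (0.2998), GFP+ replicate 4 (1.78) and Tomato- replicate 7 (1.21). A region 60373 bp from the TSS of Uqcrfs1, a subunit of respiratory complex III, had 4.63 and 5.15 and no deposited peak in any other library. In Greb1l, whose loss disturbs kidney development, an intron 1 region had 4.63 and 5.15, beside weaker peaks of 0.193 in GFP+ replicate 3 and 0.450 in Tomato- replicate 7.

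Of the 12 leading distal regions, several lay in sequence that recurs in the genome. The median copy number of 31-base words around the summit was 93 for the region near Kcnj3 (7.50 and 5.01), 48 near Gm6871 (8.92 and 5.15), 45 near Gm2832 (4.63 and 5.92), 39 in Ipw, an imprinted non-coding RNA gene (5.75 and 7.41), 3 in Gm8882 (6.25 and 9.29), and 2 near 4930591E09Rik (8.004 and 5.92) and Gm4668 (8.92 and 5.15). Reads from such copies can be placed at any one of them. Over the whole set, 178 regions (21.8%, interval 19.1 to 24.7) had at least 2 copies. This was close to the 21.1% of other two-library regions and 21.2% of GFP+ only regions, and above the 16.0% of all merged regions. Among promoter regions the number was 3 of 39 and among distal ones 175 of 778.

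Members were spread over the genome. Their share of a chromosome's merged regions ran from 0.274% on chromosome 16 to 0.567% on chromosome 19, with 0.286% on chromosome 1. No stretch of 100 kb held 4 of them, and only 1 held 3, on chromosome 14 from 5119416 to 5162318 beside Gm3317. Over 1 Mb, a width picked after the positions were seen, 2 stretches held 5 or more. One held 8 on chromosome 2 from 177002024 to 178001986, beside zinc-finger and predicted genes such as Zfp970, Zfp971, Zfp972 and Gm14296. The other held 5 on chromosome 14 from 5119416 to 5568316, beside Gm3317 and Gm3488. All 8 and all 5 lay in repeated sequence.

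Regions beside genes of the aSHF and pharyngeal mesoderm were few. With a distance of 150000 bp to a TSS, 3 of the 817 regions (0.367%, interval 0.125 to 1.07) lay near 3 of 20 listed genes, against 0.418% of all merged regions, 0.463% of other two-library regions and 0.357% of GFP+ only regions. The counting interval held all of these shares. None of the 3 was within 50000 bp of the listed gene's TSS.

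Eya1 encodes a transcriptional co-activator in pharyngeal and cardiac progenitors. A region in its intron 11 (chr1:14185987-14186127), 124142 bp downstream of the nearest TSS, had a -log10 q of 3.14 in Tomato+ replicate 6 and 3.68 in replicate 8. Weaker peaks of 0.643, 1.44 and 0.350 were deposited in GFP- replicate 2, GFP+ replicate 3 and GFP+ replicate 4. Spry1 encodes a feedback inhibitor of FGF signalling. The region 129595 bp downstream of its TSS (chr3:37769401-37769684), closer to Gm5148, had 3.14 and 2.35 and no deposited peak in the other 5 libraries. Tlx1 is a homeobox gene required for the spleen. The region 120488 bp upstream of it lay in a coding exon of Pdzd7 (chr19:45030009-45030446), had 2.15 and 2.78, and held a weaker peak of 1.04 in Tomato- replicate 7. No region of the set lay near Tbx1, Fgf8, Fgf10, Isl1, Mef2c or Hand2.

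Head muscle genes had 4 regions near 3 of 10 genes (0.490%, interval 0.191 to 1.25), the one list whose interval lay above the share of all merged regions, 0.176%. The interval also lay above the 0.147% of other two-library regions. It held the 0.267% of GFP+ only regions, of which 3 lay near 3 of the genes, so the share did not set Tomato+ only apart from GFP+ only regions. Within 50000 bp the list had 2 regions (0.245%, interval 0.0672 to 0.888), and the interval then held the 0.0712% of all merged regions. Tcf21 encodes a helix-loop-helix factor of branchiomeric muscle and epicardial progenitors. Its region, in intron 1 and 737 bp from the TSS (chr10:22819235-22819577), had 4.91 and 3.68 in the Tomato+ libraries and a weaker peak of 0.749 in GFP+ replicate 3 alone. Ebf3 encodes a factor of muscle and neuronal differentiation. A region 4671 bp upstream of it (chr7:137318981-137319252) had 4.03 and 3.53, with weaker peaks of 1.74 in GFP- replicate 1, 1.22 in GFP+ replicate 3 and 0.788 in GFP+ replicate 4. A second Ebf3 region lay 108130 bp downstream with a lower value of 2.54. Near Myod1, the master regulator of myoblasts, an intron of Sergef 72106 bp away held a region with 3.86 and 4.40, and weaker peaks of 1.98 in GFP- replicate 2, 1.44 in GFP+ replicate 3 and 1.78 in GFP+ replicate 4. This list rests on 4 regions, and it was 1 of 10 lists examined.

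The pSHF list, which holds genes of the domain that GFP+ cells come from, had 5 regions near 5 of 20 genes (0.612%, interval 0.262 to 1.42), against 0.356% of all merged regions and 0.267% of GFP+ only regions. They lay near Tbx5, Gata5, Gata6, Meis2 and Wt1, at distances from 80429 bp (Wt1) to 134011 bp (Gata6). The Gata6 region, upstream of a cardiac and endodermal zinc-finger gene, had 3.04 and 3.68, with weaker peaks of 1.57 in GFP- replicate 2 and 1.21 in Tomato- replicate 7. The Wt1 region, downstream of an epicardial factor gene, had 3.86 and 2.35, with weaker peaks of 1.42 and 1.33 in GFP+ replicates 3 and 4. The region 92401 bp upstream of Meis2 had 2.46 and 2.35 and no peak elsewhere. The interval of the pSHF list held the shares of the compared sets, as did that of the aSHF list.

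Cardiomyocyte genes had 2 regions. One lay in intron 2 of Myl4, which encodes the atrial essential myosin light chain, 1138 bp from its TSS (2.85 and 2.35, with a weaker peak of 0.2998 in GFP- replicate 2). The other lay in intron 6 of Ccdc141, 110039 bp upstream of the TSS of Ttn, the giant sarcomeric spring protein gene, with 3.14 and 5.15 and no peak elsewhere. Neural crest and neural lists had 1 region each. The Dlx2 region, 5123 bp upstream of this pharyngeal arch homeobox gene (chr2:71551768-71551987), had 5.10 and 2.39, and weaker peaks of 0.233 and 0.469 in GFP- replicate 1 and GFP+ replicate 4. The Pax7 region was 133191 bp away (2.39 and 2.75).

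The endoderm and surface epithelium list had 3 regions near 4 of 16 genes. One was in a coding exon of Pax1, a pharyngeal pouch factor gene, 3350 bp from the TSS (3.39 and 2.55), one was 66713 bp upstream of Grhl2, an epithelial factor gene (2.46 and 2.35), and one lay in a coding exon of Eif4b, 61855 bp from the keratin gene Krt18 and 85729 bp from Krt8 (2.34 and 2.498). The endothelial and endocardial list had 2, in intron 9 of Nfatc1, a factor of valve endocardium (5.51 and 2.86), and 84754 bp downstream of Sox17 (5.42 and 2.35). The erythroid list had 2, both near Klf1, the red-cell regulator, 11268 bp downstream (2.48 and 2.01) and 79336 bp upstream at the Dand5 promoter (3.49 and 2.83). RUNX, TEAD and LHX factor genes had 3, none of them at the listed gene itself. The first lay in an intron of Pth2, 34219 bp upstream of Tead2 (2.79 and 3.11). The second was at the Tex52 promoter, 74567 bp upstream of Tead4 (2.17 and 2.01). The third lay in an intron of Mvb12b, 112899 bp upstream of Lmx1b (2.36 and 5.46). Each of the 10 regions of these 4 lists had a weaker peak in 1 to 4 of the other 5 libraries. In each of these lists and in the cardiomyocyte, neural and neural crest lists the interval held the share of all merged regions.

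**Figure D4:**
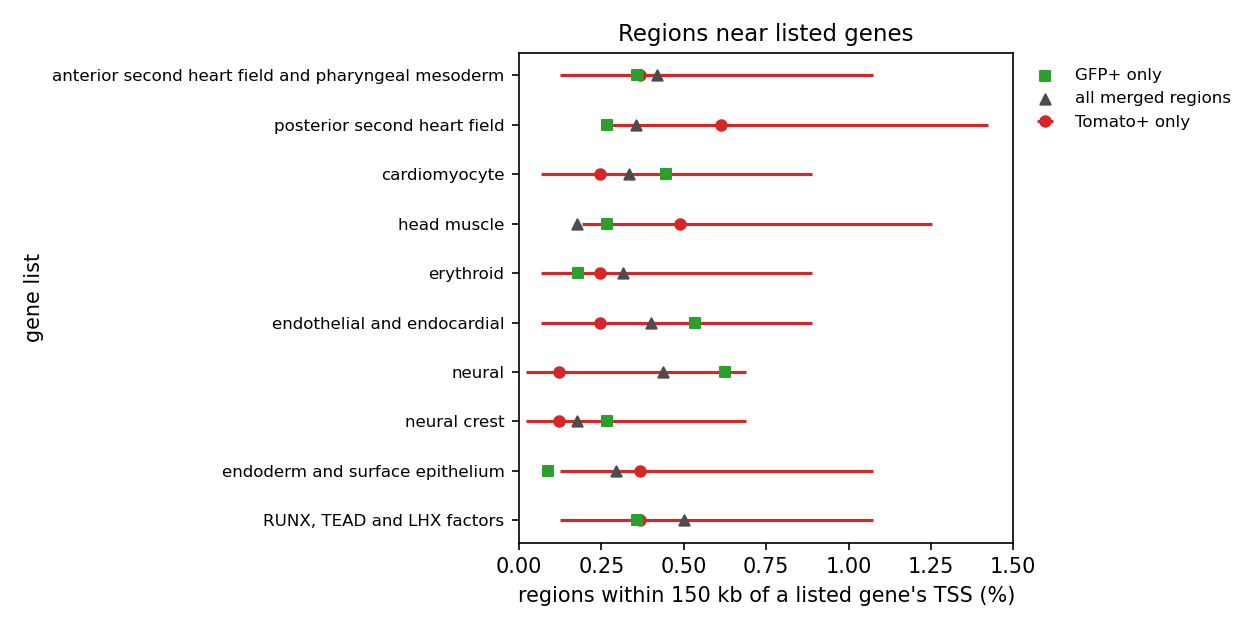
Share of regions within 150000 bp of a TSS of each gene list (x axis, percent; y axis, list). Red points with 95% Wilson intervals are the 817 Tomato+ only regions, green squares GFP+ only regions and grey triangles all merged regions. The head muscle interval, on 4 regions, is the one that starts above the triangle, and it holds the green square.

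Motif letters were counted in windows reaching 200 bp to either side of the summit, on both strands. None of the 20 letter strings contains another. For 17 of 20 motifs the interval of the 817 regions held the share of other two-library regions. The remaining 3, RUNX, GATA and SOX, were lower in the 817 regions than in other two-library regions. For all 3 the interval held the share of all merged regions, which lay close to its upper end. AGATAA, read by GATA factors, was found in 11.9% (interval 9.83 to 14.3) of windows, against 14.7% of other two-library regions and 14.3% of all merged regions. ACAATGG, read by SOX factors, was found in 3.79% (2.69 to 5.34), against 5.49% and 5.29%. TGTGGT, read by RUNX factors, was found in 23.6%, against 26.7% and 26.6%, and its interval ended at the first of these to 3 digits. GGAATG, read by TEAD factors, the partners of the Hippo co-activators, was found in 18.8% (16.3 to 21.7), and the interval held the 21.1% of other two-library and 20.9% of all merged regions.

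GFP+ only regions held a higher share of several motifs. Their share lay above the Tomato+ only interval for 7 of 20 motifs and below it for none. AGATAA was found in 17.5% of them, GGAATG in 25.1%, TGTGGT in 28.5%, and TGTTTAC (FOX factors) in 6.60% against 3.79% (2.69 to 5.34) in Tomato+ only and 4.18% in all merged regions. TGANTCA was found in 11.3% against 7.83% (6.18 to 9.88) and 9.997%. TGATTGAT, a joint HOX and PBX site, was found in 2.23% (25 regions) against 1.10% (9 regions, 0.581 to 2.08) and 1.23%. TAATTA, read by LHX and other homeodomain factors, was found in 7.22% against 5.26% (3.93 to 7.01) and 5.67%. The GFP+ only shares have counting intervals too. These lay wholly above the Tomato+ only interval for AGATAA (15.4 to 19.8) and GGAATG (22.7 to 27.8) alone. For the other 5 of the 7 motifs the intervals of the 2 sets overlapped. For MEF2 (TAAAAATA), whose family member names the Cre line, the shares were 2.33% in Tomato+ only, 2.496% in GFP+ only and 2.59% in all merged regions. The median GC content of the windows was 52.6% in Tomato+ only, 51.5% in GFP+ only and 52.4% in other two-library regions. These are descriptions of letters in regions that were not tested against each other.

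**Figure D5:**
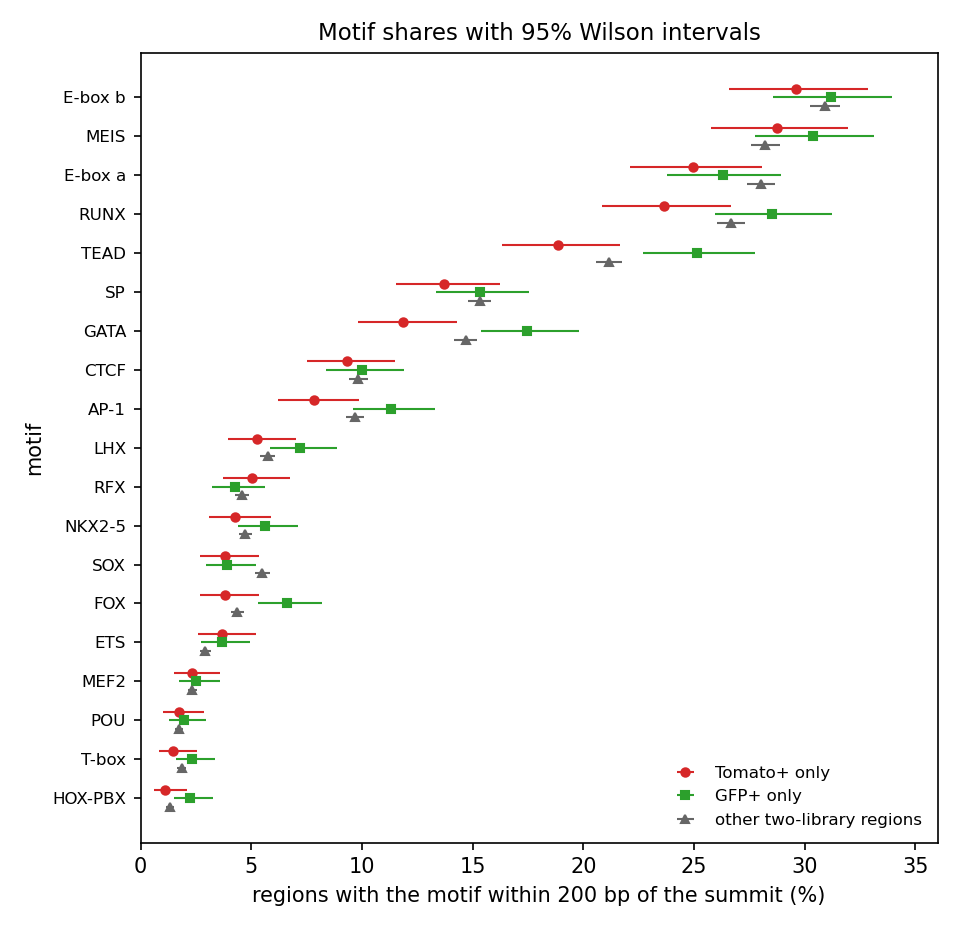
Share of regions (x axis, percent) with each of 19 motifs (y axis) within 200 bp of the summit. Points with 95% Wilson intervals are the 817 Tomato+ only (red circles), 1122 GFP+ only (green squares) and 18347 other two-library regions (grey triangles); E-box a is CAGCTG and E-box b is CAGATG. The red intervals end to the left of the grey points for RUNX, GATA and SOX. They end to the left of the green points for GATA, TEAD, RUNX, FOX, AP-1, HOX-PBX and LHX. Red and green intervals are apart for GATA and TEAD alone.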

How the data were processed

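Cells of the dissected SHF region were sorted from pooled E9.5 embryos and 7 ATAC-seq libraries were made (2 Tomato+, 1 Tomato-, 2 GFP+ and 2 GFP-). The authors aligned reads to GRCm38 with SNAP, removed duplicate, improperly paired and blacklisted reads, and called narrow peaks in each library with MACS2 2.1.1, as the submitters' processing notes name it. The header kept with Tomato+ replicate 6 gives a p-value limit of 0.01, no control library, and tags extended to 73 bp after a shift of 37 bp. The deposited pileup is the coverage signal over the summit. The deposited fold enrichment is the ratio of pileup to local background after 1 is added to each, so at low pileups it is smaller than the plain ratio. The deposited -log10 p-values and -log10 q-values are computed within a library, so they grow with depth. The lists hold no read counts over shared regions, so no differential test was possible, and replicates were not pooled.

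Merged regions, TSS distances (30219 TSSs of 43783 curated RefSeq transcripts, GRCm38.p6), the genome copies of 31-base words within 50 bp of the summit (repeated sequence: a median of at least 2) and motif letters within 200 bp were computed with Python 3.11.15, numpy 2.4.6, pandas 2.3.3 and numba 0.67.0, tested on simulated data. Tag numbers were estimated from the lowest background rate in each list. Shares carry 95% Wilson intervals, which cover counting error only, and regions are not replicates. No test was run, since the rule used the peak values of all 7 libraries. The members, gene lists, motifs and rules were chosen with earlier results of these data known. Regions named are the 10 promoter and 12 distal ones with the highest lower -log10 q in the Tomato+ libraries (ties by position), all near the aSHF list and up to 3 for each other list, within 150000 bp of a TSS. Alternatives were other q limits and rules for barring a region, the 30000 peaks with the smallest p, promoters of 500 bp around a TSS, 5 copies, 100-bp motif windows, single-copy regions, matched GC, 50000 bp for gene lists, and leaving out each library. Values for 1 gene and 1 motif are not reported here.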

Additional observations from a re-analysis of the deposited data

How the results depend on the processing

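The count of 817 depended strongly on the limits. It was 1794 at a -log10 q of at least 1.3, 227 at 4, 168 where any deposited peak barred a region, and 284 with the 30000 peaks of smallest p in each library. Of the 227 regions at 4, 34 (15.0%) overlapped the 817, of which they are 4.16%. The promoter share was 2.90%, 9.25%, 1.79% and 8.80% under the same 4 rules. With at least 5 copies the repeated share was 14.0%. Within 50000 bp, 7 listed genes had a region, against 25 within 150000 bp. Such gene counts also depend on the number of regions in a set. The 18347 other two-library regions lay near 20 of 20 aSHF genes within 150000 bp and near 17 within 50000 bp.

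Leaving out 1 library gave 989 to 22203 regions, a promoter share of 2.87% to 5.73%, a repeated share of 9.77% to 24.9%, 1 to 15 of 20 motifs whose interval left out the share of other two-library regions, and 27 to 157 listed genes nearby. The high counts came without Tomato+ replicate 6 (15846 regions) or 8 (22203), where 1 Tomato+ library alone chose the regions. Without Tomato- replicate 7 there were 1243 regions, 46 listed genes and a repeated share of 24.9%, and without GFP+ replicate 4 the motif number was 1. For repeats, motifs and gene lists these settings were chosen after seeing the data. The stricter overlap for barring a region (901 regions) and the promoter window of 500 bp moved no value beyond its limit. The motif number was 3, and 2 with 100-bp windows or in single-copy regions. Against all merged regions 2 motifs, AP-1 and SP, had a share outside the interval, and with GC weighting again 2, AP-1 and RUNX. Within 50000 bp the head muscle interval held the share of all merged regions. No paired analysis was made because the labels do not say which sorts came from the same pool, and no test was run. The libraries' pileup at the q limit, 10 to 13 tags, limits what weaker opening could be seen.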
